A study of Mus musculus with 22 samples.

Results

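The 10 integrin subunit genes examined here were Itga1 (ENSMUSG00000042284), Itga4 (ENSMUSG00000027009), Itga5 (ENSMUSG00000000555), Itga6 (ENSMUSG00000027111), Itga8 (ENSMUSG00000026768), Itga11 (ENSMUSG00000032243), Itgav (ENSMUSG00000027087), Itgb1 (ENSMUSG00000025809), Itgb3 (ENSMUSG00000020689) and Itgb5 (ENSMUSG00000022817). They are the rows of the deposited count table whose Ensembl identifier carries one of these mouse symbols, 10 of 55414 genes. Fibroblasts were sorted from mouse skin in a model of stretch-driven skin growth, and their RNA was sequenced in 22 libraries. Every mouse was operated on. EXP mice had a swelling hydrogel expander left under the skin near the neck, and CTRL mice had the same operation without an expander. Day 1 gave 4 CTRL and 5 EXP libraries, day 2 gave 3 and 3, and day 4 gave 4 and 3. Cells bearing CD31, CD45, CD117 or EpCAM were gated out, and live cells carrying both CD34 and PDGFRα were kept. No transgene, strain, sex or age is given in the labels, and they do not say how many animals went into a library. P-values therefore measure the spread between these libraries, part of which may be technical.

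Integrins are receptors made of 1 alpha and 1 beta subunit. They hold the matrix outside the cell and, through talin and kindlin at the beta tail, the actin cytoskeleton inside it. The alpha subunit largely sets the ligand. Paired with β1, α5 binds fibronectin, α4 binds fibronectin and VCAM-1, α8 binds RGD-bearing proteins such as nephronectin, α1 and α11 bind collagens, and α6 binds laminins. The αv subunit pairs with β1, β3 or β5 and binds vitronectin, fibronectin and the latent form of TGF-β. In dermal fibroblasts these receptors anchor the cell and carry force between matrix and cytoskeleton.

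Itga5 and Itgb5 were the 2 subunits called on more than 1 day, in opposite directions, so the DNA just before their start sites is shown first. RefSeq (GRCm38.p6) gave a promoter for 8 of the 10 subunits. Each sequence runs 5′ to 3′ on the gene's own strand and ends at the last base before the start site. Capitals mark the SP1 motif GGGCGG, read on either strand. Itga5 lies on the minus strand (chr15:103366792-103367041) and Itgb5 on the plus strand (chr16:33829415-33829664).
Itga5: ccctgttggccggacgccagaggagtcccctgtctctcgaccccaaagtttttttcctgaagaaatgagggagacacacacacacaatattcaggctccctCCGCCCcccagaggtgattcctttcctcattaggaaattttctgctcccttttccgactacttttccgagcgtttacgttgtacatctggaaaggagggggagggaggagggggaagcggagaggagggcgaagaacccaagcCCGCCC
Itgb5: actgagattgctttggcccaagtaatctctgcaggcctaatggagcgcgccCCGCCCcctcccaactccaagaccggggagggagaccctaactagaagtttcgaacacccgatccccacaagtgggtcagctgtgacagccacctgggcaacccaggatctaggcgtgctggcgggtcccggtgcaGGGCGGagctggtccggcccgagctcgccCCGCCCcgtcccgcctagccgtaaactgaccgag
The Itga5 window held the SP1 motif 149 and 6 bases before the start site, and the Itgb5 window held it 199, 63 and 34 bases before. Among 32851 RefSeq mouse promoter windows of the same length, 32.7% held this motif. It was also found before Itga4 and Itgb1. The TEAD motif GGAATG, present in 12.6% of all windows, occurred only in that of Itgb1 among the 8. The AP-1 motif TGANTCA (6.75% of windows) and the SRF CArG box (1.47%) had 0 matches in the 8 windows. A match describes the letters and does not show binding.

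Library totals ran from 21461294 to 30210204 counts, and a level of 3 counts, taken as the detection floor, was 0.0993 to 0.140 CPM, the unit for read counts relative to a library's TMM-scaled total. Beyond the groups, 192 genes correlated with Rnf10 set 7 libraries apart from the other 15, with 0 integrin subunits among them. On its high side were 5 day 1 libraries (3 CTRL, 2 EXP) and 2 CTRL libraries from day 4, and none came from day 2. Results are therefore also given within the high side on day 1 and the low side on day 4. The fibroblast genes of the sort were abundant (Pdgfra 227 to 1022 CPM, Cd34 216 to 2346 CPM), and those of the gated-out cells were at most 3.68 CPM for Pecam1, 2.09 for Epcam, 0.698 for Kit and 0.243 for Ptprc.

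Levels of different subunits were compared per length, as CPM per kilobase (kb) of exon, with TMM-scaled CPM divided by the union of a gene's exons. Here and in what follows, ± gives the SD over libraries. Itgb1, the common partner of most of these alpha subunits, was highest, with a mean of 147 CPM per kb over the 22 libraries. Itga5 followed at 73.8, then Itgb3 at 14.2, Itgb5 at 10.9, Itga11 at 8.66 and Itgav at 4.74 CPM per kb. Itga8 (0.951), Itga1 (0.915), Itga6 (0.217) and Itga4 (0.0374) were the lowest. The order Itgb1, Itga5, Itgb3 held in 22 of 22 libraries. Itgb3 was above Itgb5 in 7 of 11 CTRL and 10 of 11 EXP libraries, and in the day 1 CTRL group the mean of Itgb5 (15.2 ± 5.70) exceeded that of Itgb3 (12.1 ± 2.97). Itgb5 was above Itga11 in 10 of 11 CTRL and 7 of 11 EXP libraries. Itga11 was above Itgav in 11 of 11 CTRL and 8 of 11 EXP libraries. The order of Itgb3 and Itgb5 and of Itgb5 and Itga11 was thus not the same in all libraries of either arm. Itga8 was above Itga1 in 11 of 11 CTRL libraries and in 1 of 11 EXP libraries. With the longest transcript as the length, the means of Itga8 and Itga1 changed places (1.21 and 1.55 CPM per kb), and the other ranks stayed.

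**Figure D1:**
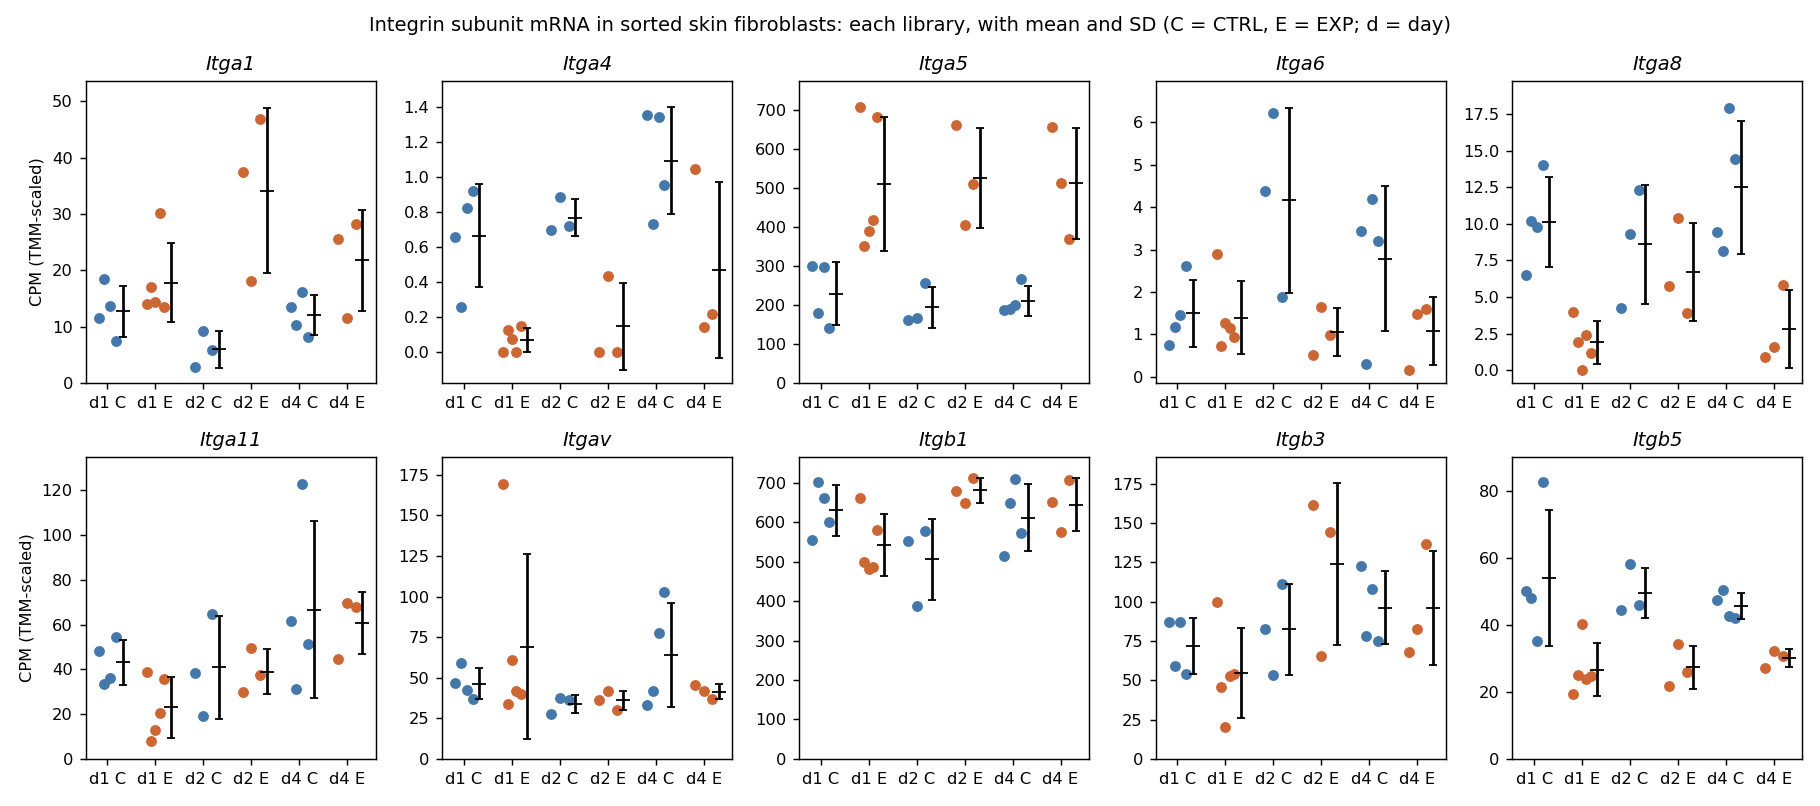
TMM-scaled CPM of each of the 10 integrin subunits in every library (points), with the group mean and SD, for CTRL (C) and EXP (E) on days 1, 2 and 4. Each panel has its own linear axis. The EXP points of Itga5 lie above the CTRL points on every day, between 352 and 708 CPM on day 1 against 141 to 299.6.

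The comparison of EXP with CTRL on each day asks how the receptors for the matrix changed under the expander. Itga5 was higher in EXP on days 1, 2 and 4, Itga1 was higher on day 2, Itgb5 was lower on days 1 and 2, and Itga4 and Itga8 passed as lower on day 1. For Itga4 and Itga8 a difference of the effect between days was not called (adjusted p 0.527 and 0.355). All 10 subunits passed the filter on low counts. Itga4 reached 10 counts in 10 of 11 CTRL and 2 of 11 EXP libraries, so it entered the test through CTRL, the arm where it was higher, and its call supports nothing beyond its own counts. At an adjusted p under 0.05 (edgeR quasi-likelihood test, 17554 genes), 4 of the 10 were called on day 1, 1 higher and 3 lower, where 28.6% of all genes were called (13.9% higher, 14.7% lower). Apart from Itga4, 3 subunits were called on day 1, 1 higher and 2 lower. On day 2, 3 of the 10 were called, 2 higher and 1 lower, against 13.4% of all genes (7.72% higher, 5.71% lower). On day 4, 1 of the 10 was called, as higher, against 22.5% (12.8% higher, 9.66% lower). EXP and CTRL libraries did not overlap for 3 subunits on day 1, 6 on day 2 and 3 on day 4, where 23.9%, 39.3% and 25.5% of all genes did not overlap. Itga4, which entered through CTRL, was 1 of the 3 on day 1 and 1 of the 6 on day 2. With only 10 subunits, none of these shares was read as particular to integrins. The median log2 fold change of the 10, Itga4 included, was -0.31 on day 1, 0.013 on day 2 and -0.37 on day 4. Over all genes tested it was 0.02, 0.02 and 0.03. In bulk RNA, fewer cells of a type and less RNA per cell cannot be told apart.

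**Figure D2:**
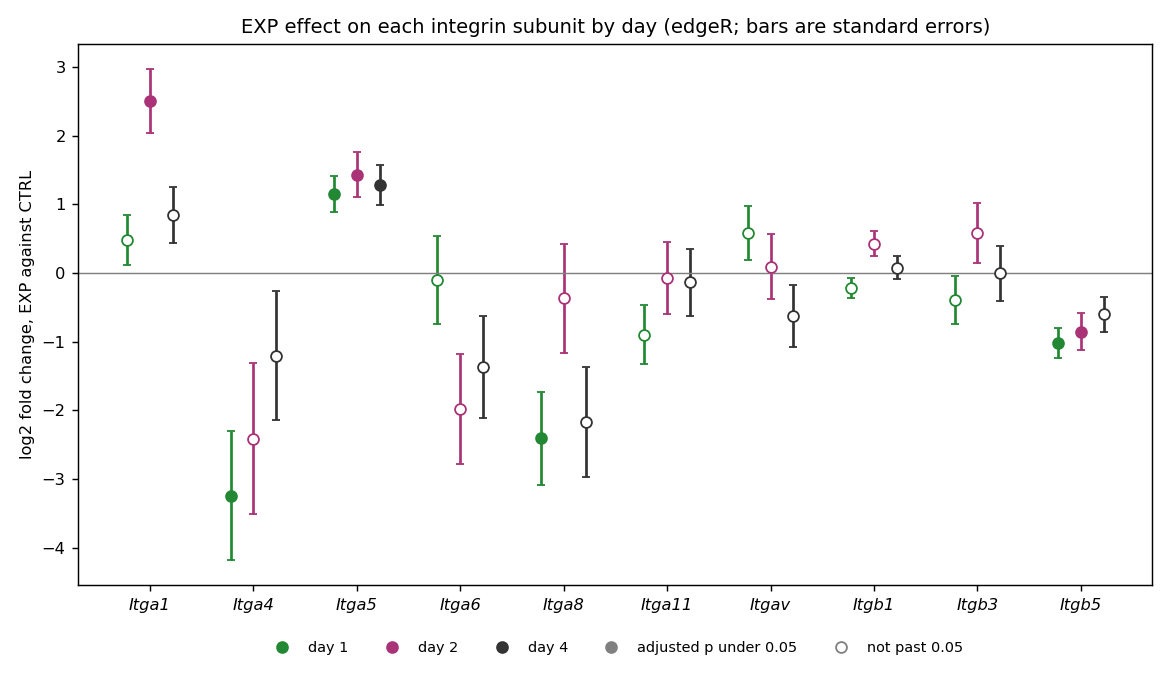
Log2 fold change of EXP against CTRL for each subunit on days 1, 2 and 4, with standard errors from edgeR; filled points passed an adjusted p of 0.05. Itga5 lies near the same positive value on the 3 days (1.15, 1.43 and 1.28), whereas the point of Itga1 on day 2 (2.51) stands well above its points on days 1 and 4.

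Itga5 encodes the alpha subunit of the main fibronectin receptor, α5β1. On day 1, Itga5 was at 299.6, 181, 297 and 141 CPM in CTRL and at 708, 352, 389, 417 and 682 CPM in EXP. Day 2 gave 161, 167 and 255 CPM in CTRL and 660.2, 406 and 510.0 CPM in EXP for Itga5. On day 4, Itga5 was at 186, 189, 201 and 266 CPM in CTRL and at 654, 512 and 370.1 CPM in EXP. Each EXP library lay above each CTRL library of its day, on all 3 days. The fold was 2.22 on day 1, 2.70 on day 2 and 2.43 on day 4. As log2 fold changes in edgeR, these were 1.15 (standard error 0.27, adjusted p 0.00309), 1.43 (standard error 0.32, adjusted p 0.00635) and 1.28 (standard error 0.30, adjusted p 0.00547). The rise of Itga5 was past the threshold in every setting that kept all libraries and in each fit that left out 1 library. Within the high side of the library split on day 1 (3 CTRL, 2 EXP) Itga5 was at 0.98, adjusted p 0.0847, and within the low side on day 4 (2 CTRL, 3 EXP), where 1 gene of 17554 passed, at 1.45, adjusted p 0.143.

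Itga5 was also set against its partner Itgb1 and against the other alpha subunits, as a description without a test. Per length, Itga5 was 30.6 ± 12.3% of Itgb1 (± SD over 4 libraries) in CTRL and 76.4 ± 15.9% (± SD over 5 libraries) in EXP on day 1. On day 2 the values were 32.2 ± 6.98% and 63.7 ± 14.8% (± SD over 3 libraries each), and on day 4 28.9 ± 6.88% (± SD over 4 libraries) and 66.6 ± 20.8% (± SD over 3 libraries). EXP libraries were above CTRL libraries on each day, the closest being 38.3% in CTRL and 43.3% in EXP on day 4. Among the 7 alpha subunits, Itga5 took 74.1 ± 8.60% of the summed level per length in CTRL and 89.8 ± 2.89% in EXP on day 1, 75.3 ± 2.05% and 88.0 ± 4.11% on day 2, and 67.3 ± 9.68% and 84.9 ± 5.23% on day 4 (± SD). The sum itself went from 61.5 to 116 CPM per kb on day 1, from 52.6 to 120.4 on day 2 and from 64.4 to 121 on day 4. The other 6 alpha subunits together were at 13.3 to 16.7 CPM per kb in CTRL and 5.98 to 24.98 in EXP on day 1, and their ranges overlapped on the other days too (9.79 to 18.3 and 12.1 to 16.2 on day 2, 11.7 to 35.02 and 14.5 to 19.2 on day 4).

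**Figure D3:**
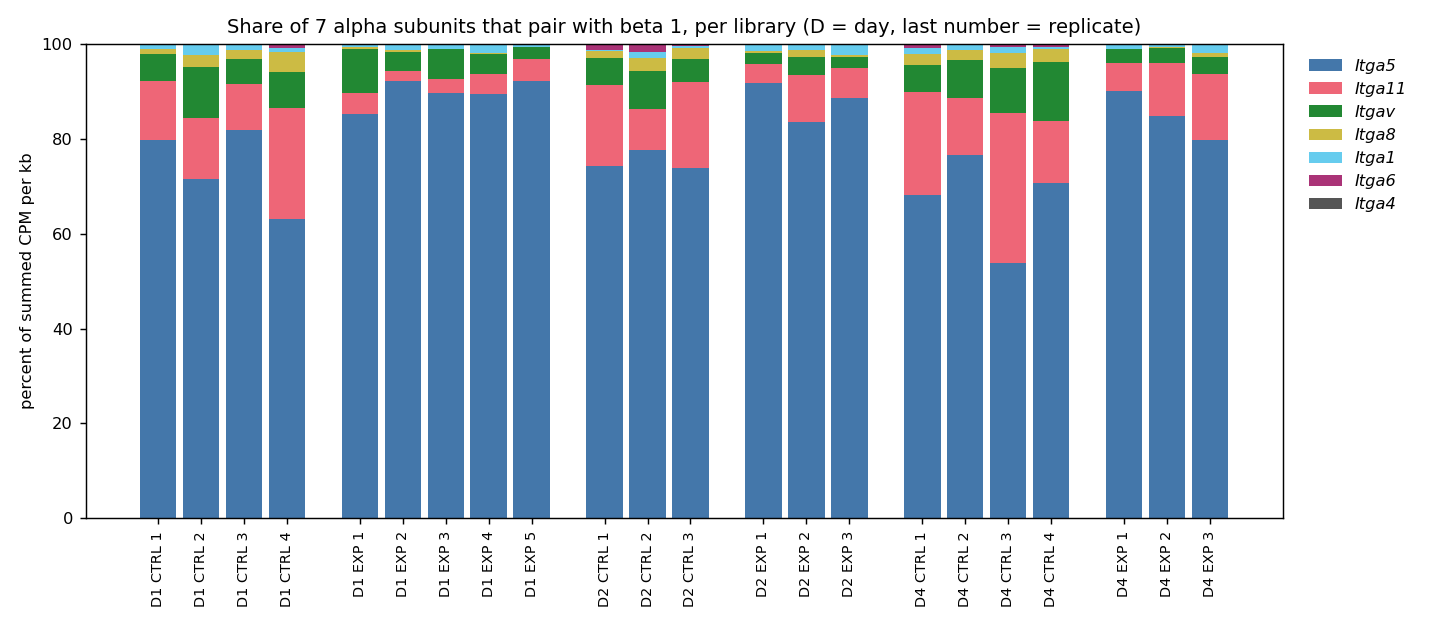
Share of each of 7 alpha subunits in their summed CPM per kb, as a stacked bar for every library (D, day; last number, replicate). Itga5 fills 85.2 to 92.3% of the bar in the day 1 EXP libraries and 63.0 to 81.9% in the day 1 CTRL libraries, with Itga11 and Itgav taking most of the rest.

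Itga4, whose product pairs with β1 to bind fibronectin and VCAM-1, was the rarest of the 10. Its raw counts on day 1 were 16, 6, 23 and 24 in CTRL and 0, 3, 2, 0 and 4 in EXP. The counts of Itga4 on day 2 were 14, 17 and 16 in CTRL and 0, 11 and 0 in EXP. On day 4 they were 28, 17, 32 and 22 in CTRL and 39, 4 and 6 in EXP. EXP libraries were below CTRL libraries without overlap on days 1 and 2, and 1 EXP library of day 4 had the highest count of all 22. As levels, Itga4 was at 0.664 ± 0.293 CPM over 4 libraries in CTRL and 0.0679 ± 0.0674 CPM over 5 libraries in EXP on day 1, the latter at or near the detection floor. Its log2 fold changes were -3.24 (standard error 0.94, adjusted p 0.0132) on day 1, -2.41 (standard error 1.10, adjusted p 0.154) on day 2 and -1.20 (standard error 0.94, adjusted p 0.377) on day 4. As Itga4 was tested because of its CTRL counts, these values are a description of the counts above. The day 1 call was absent within the high side of the library split (-3.26, adjusted p 0.122), and on day 2 limma voom called Itga4 (-4.25, adjusted p 0.00294), as did edgeR without EXP replicate 2 (-7.32, adjusted p 0.00774). Exons of Itga4 share 8.04% of their bases with Cerkl on the opposite strand, and since strandedness is not given, reads there cannot be assigned to 1 of them. Cerkl itself had a median of 0.0685 CPM and at most 0.644 CPM.

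Itga8 encodes α8, an RGD receptor known from mesenchymal and smooth muscle cells. On day 1, Itga8 was at 6.51, 10.2, 9.76 and 14.02 CPM in CTRL and at 3.95, 1.94, 0, 2.42 and 1.20 CPM in EXP. Day 2 gave 4.23, 9.29 and 12.3 CPM in CTRL and 5.74, 10.4 and 3.91 CPM in EXP for Itga8. On day 4, Itga8 was at 9.43, 8.15, 17.9 and 14.4 CPM in CTRL and at 0.912, 1.60 and 5.85 CPM in EXP. EXP libraries of days 1 and 4 were all below the CTRL libraries, and those of day 2 overlapped them. Itga8 fell on day 1 (-2.41, standard error 0.67, adjusted p 0.0115), and its differences on day 2 (-0.37, standard error 0.79, adjusted p 0.809) and day 4 (-2.17, standard error 0.80, adjusted p 0.0560) did not pass. On day 4, DESeq2 called it (-2.18, adjusted p 0.0132), as did edgeR without EXP replicate 3 (-3.32, adjusted p 0.0128). The day 1 call of Itga8 was also past the threshold within the high side of the library split (-1.62, adjusted p 0.0308). Smooth muscle cells and pericytes also express Itga8, and 6 markers of them were read beside it. Their summed level was 31.5 to 58.8 CPM in CTRL and 15.5 to 28.7 CPM in EXP on day 1, 54.7 to 62.0 and 17.9 to 36.7 CPM on day 2, and 38.4 to 71.7 and 15.1 to 38.2 CPM on day 4. In any library Kcnj8 was at most 46.7 CPM, Cspg4 15.8 and Des 9.43 CPM. Rgs5, Notch3 and Myh11 were at most 4.54, 3.84 and 2.34 CPM. Of the 6 markers, 1 passed on day 1 (Cspg4, lower), 1 on day 2 (Des, lower) and 0 on day 4. The summed levels of the 2 arms were apart on all 3 days, and those of Itga8 on days 1 and 4. The part of these cells in the fall of Itga8 was not tested.

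Itgav encodes αv, the partner of β3 and β5. It was at 46.4 ± 9.34 CPM over 4 libraries in CTRL and 69.1 ± 56.9 CPM over 5 libraries in EXP on day 1, at 33.8 ± 5.52 and 36.1 ± 5.70 CPM over 3 libraries each on day 2, and at 63.9 ± 32.2 over 4 libraries and 41.4 ± 4.44 CPM over 3 libraries on day 4. The wide spread in EXP on day 1 came from replicate 1, at 169 CPM beside 33.8 to 60.7 CPM in the other 4 libraries. The arms overlapped on every day. None of the log2 fold changes passed, at 0.58 (standard error 0.39, adjusted p 0.289), 0.094 (standard error 0.48, adjusted p 0.923) and -0.63 (standard error 0.45, adjusted p 0.330). Without EXP replicate 1 the day 1 value turned to -0.037, adjusted p 0.937. Within the low side of the library split on day 4 it was 0.14, adjusted p 0.789, the 2 CTRL libraries of the high side being those with the most Itgav (33.4, 42.0, 77.3 and 103 CPM in CTRL replicates 1 to 4).

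Of the collagen receptors, Itga1 rose on day 2 and Itga11 passed on no day. Itga1 encodes α1, which binds type IV and fibrillar collagens as α1β1. On day 1, Itga1 was at 11.5, 18.4, 13.7 and 7.51 CPM in CTRL and at 14.1, 17.0, 14.4, 30.1 and 13.5 CPM in EXP. Day 2 gave 2.79, 9.29 and 5.93 CPM in CTRL and 37.4, 18.2 and 46.8 CPM in EXP for Itga1. On day 4, Itga1 was at 13.5, 10.3, 16.3 and 8.26 CPM in CTRL and at 25.5, 11.6 and 28.2 CPM in EXP. On day 2 the lowest EXP library was above the highest CTRL library, and on days 1 and 4 the arms overlapped. Itga1 was 5.69-fold higher in EXP on day 2, a log2 fold change of 2.51 (standard error 0.47, adjusted p 0.00181), which was past the threshold in each alternative and in each fit without 1 library. On day 1 it was 0.48 (standard error 0.37, adjusted p 0.343) and on day 4 0.85 (standard error 0.41, adjusted p 0.139). Scaling by library totals called Itga1 on day 4 as well (1.19, adjusted p 0.0469). The CTRL mean was lowest on day 2, at 6.002 ± 3.25 CPM over 3 libraries, beside 12.8 ± 4.55 over 4 libraries on day 1 and 12.1 ± 3.53 CPM over 4 libraries on day 4.

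Itga11 encodes α11, the fibroblast receptor for fibrillar collagen. It was at 43.2 ± 9.91 CPM over 4 libraries in CTRL and 23.1 ± 13.7 CPM over 5 libraries in EXP on day 1, at 40.9 ± 22.9 and 39.1 ± 9.998 CPM over 3 libraries each on day 2, and at 66.7 ± 39.5 over 4 libraries and 60.7 ± 13.9 CPM over 3 libraries on day 4. On day 1, 2 of 5 EXP libraries (39.0 and 35.5 CPM) lay within the CTRL range of 33.6 to 54.5 CPM. The log2 fold changes of Itga11 were -0.90 (standard error 0.43, adjusted p 0.125), -0.068 (standard error 0.53, adjusted p 0.952) and -0.14 (standard error 0.49, adjusted p 0.869). Within a library, the log2 ratio of Itga11 to Itga1 was 1.79 ± 0.86 in CTRL and 0.21 ± 1.16 in EXP on day 1, 2.74 ± 1.48 and 0.27 ± 1.02 on day 2, and 2.33 ± 0.58 and 1.55 ± 0.92 on day 4 (± SD). The mean ratio was lower in EXP on each day, but the arms overlapped on all 3.

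Itga6, the laminin-binding alpha subunit of epithelial, endothelial and some mesenchymal cells, was second to Itga4 in rarity. On day 2 it was at 4.38, 6.21 and 1.89 CPM in CTRL and 0.528, 1.65 and 0.986 CPM in EXP, without overlap. On day 1 it ranged from 0.741 to 2.60 CPM in CTRL and from 0.727 to 2.90 CPM in EXP, and on day 4 from 0.300 to 4.19 and from 0.161 to 1.61 CPM. Itga6 passed on no day, at -0.10 (standard error 0.64, adjusted p 0.925), -1.98 (standard error 0.79, adjusted p 0.103) and -1.36 (standard error 0.75, adjusted p 0.195) on days 1, 2 and 4. Fitting day 2 on its own called it lower (-1.99, adjusted p 0.0272). The 6 keratinocyte markers, from cells that carry α6 in their basal layer, summed to 7.33 to 43.9 CPM in CTRL and 2.16 to 14.05 CPM in EXP on day 1, 5.03 to 31.7 and 4.84 to 6.202 CPM on day 2, and 6.71 to 22.3 and 3.27 to 19.2 CPM on day 4. Of the 6, Krt10 was called lower on day 1 (-2.54, adjusted p 0.000128), when Itga6 was at -0.10, and 0 were called on days 2 and 4. Their part in the Itga6 level was not tested.

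Among the beta subunits only Itgb5 was called. Itgb5 encodes β5, the partner of αv in the vitronectin receptor αvβ5. On day 1, Itgb5 was at 50.3, 48.0, 35.4 and 82.9 CPM in CTRL and at 19.5, 25.2, 40.4, 23.9 and 24.7 CPM in EXP. Day 2 gave 44.6, 58.2 and 46.0 CPM in CTRL and 21.9, 34.5 and 26.0 CPM in EXP for Itgb5. On day 4, Itgb5 was at 47.4, 50.6, 42.9 and 42.3 CPM in CTRL and at 27.2, 32.3 and 30.9 CPM in EXP. EXP libraries were below CTRL libraries without overlap on days 2 and 4, and on day 1 a single EXP library, replicate 3 at 40.4 CPM, reached into the CTRL range. Itgb5 was 2.03-fold lower in EXP on day 1 and 1.81-fold lower on day 2. The log2 fold changes were -1.02 (standard error 0.22, adjusted p 0.00151), -0.85 (standard error 0.27, adjusted p 0.0365) and -0.60 (standard error 0.25, adjusted p 0.0857) on days 1, 2 and 4. The day 1 call was past the threshold in each setting and each fit without 1 library, within the high side of the split too (-1.04, adjusted p 0.0303). The day 2 call was lost in 5 of 6 fits that left out 1 library (all 6 from -1.05 to -0.72, adjusted p 0.0265 to 0.185), in all but the fit without EXP replicate 2, and with scaling by library totals (-0.41, adjusted p 0.277). On day 4 the split as a covariate gave a call (-0.84, adjusted p 0.0166), and within the low side it was -0.70, adjusted p 0.190.

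Another annotated gene, Gm38317, shares 294 of its 319 words of 25 bases with Itgb5. Its level was 9.68% to 16.4% of that of Itgb5, and reads may have been divided between them. With the counts of Gm38317 added to those of Itgb5, an alternative chosen after seeing the data, the log2 fold changes were -1.04 (adjusted p 0.0017) on day 1, -0.88 (adjusted p 0.0379) on day 2 and -0.62 (adjusted p 0.0888) on day 4.

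Itgb1 encodes β1, the partner that α1, α4, α5, α6, α8 and α11 share. On day 1, Itgb1 was at 556, 701, 662 and 601 CPM in CTRL and at 662, 499, 481, 486 and 582 CPM in EXP. Day 2 gave 553, 387 and 577 CPM in CTRL and 679.8, 649 and 713 CPM in EXP for Itgb1. On day 4, Itgb1 was at 515, 648, 711 and 574 CPM in CTRL and at 652, 575 and 708 CPM in EXP. On day 2 alone the arms were apart, with EXP above CTRL, and the difference did not pass (0.43, standard error 0.18, adjusted p 0.120). On days 1 and 4 the log2 fold changes were -0.22 (standard error 0.15, adjusted p 0.284) and 0.076 (standard error 0.17, adjusted p 0.783). On day 2, limma voom (0.42, adjusted p 0.0325) and scaling by library totals (0.91, adjusted p 0.00178) called Itgb1 higher. Scaling by totals moved the median of all genes to 0.49 on that day. Itgb3 encodes β3, the partner of αv in the vitronectin receptor αvβ3, and its arms overlapped on every day. It was at 71.7 ± 17.5 CPM over 4 libraries in CTRL and 54.6 ± 28.9 over 5 libraries in EXP on day 1, 82.4 ± 29.1 and 124 ± 51.5 over 3 libraries each on day 2, and 96.0 ± 23.2 over 4 libraries and 95.7 ± 36.3 CPM over 3 libraries on day 4. Its log2 fold changes were -0.39 (standard error 0.35, adjusted p 0.434), 0.59 (standard error 0.43, adjusted p 0.402) and -0.0042 (standard error 0.40, adjusted p 0.995).

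Ratios of 2 subunits within a library use no scaling factor between libraries. They were taken as log2 of the counts plus 2, and are described without a test. Where counts are near 0, a ratio depends on the added 2 and on depth. The 12.39 below, in day 1 EXP replicate 3, comes from 0 counts of Itga8. On day 1 the log2 ratio of Itga5 to Itga8 was 5.51, 4.14, 4.92 and 3.32 in CTRL and 7.46, 7.45, 12.39, 7.39 and 9.06 in EXP. Day 2 gave 5.22, 4.16 and 4.36 in CTRL and 6.83, 5.27 and 7.001 in EXP, and day 4 gave 4.29, 4.52, 3.48 and 4.19 and 9.40, 8.26 and 5.97. Each EXP library was above each CTRL library of its day in this ratio, and the same held for Itga5 to Itga4. Taken alone, Itga5 was apart on all 3 days, Itga8 on days 1 and 4 and Itga4 on days 1 and 2. On the days when both subunits were apart, the separation of their ratio follows from their levels and adds nothing to them. Itga4 was tested through its CTRL counts, and its EXP counts on day 1 were 0 to 4. The mean difference for Itga5 to Itga4 was 3.64 on day 1, 4.09 on day 2 and 2.77 on day 4. The ratio of Itgb3 to Itgb5 was 0.44 ± 0.81 in CTRL and 0.90 ± 1.21 in EXP on day 1, 0.68 ± 0.73 and 2.09 ± 1.04 on day 2, and 1.04 ± 0.37 and 1.60 ± 0.47 on day 4 (± SD), overlapping on each day. The ratio of Itga6 to Itgav was lower in EXP without overlap on day 2, with a mean difference of -1.99, and overlapped on days 1 and 4.

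**Figure D4:**
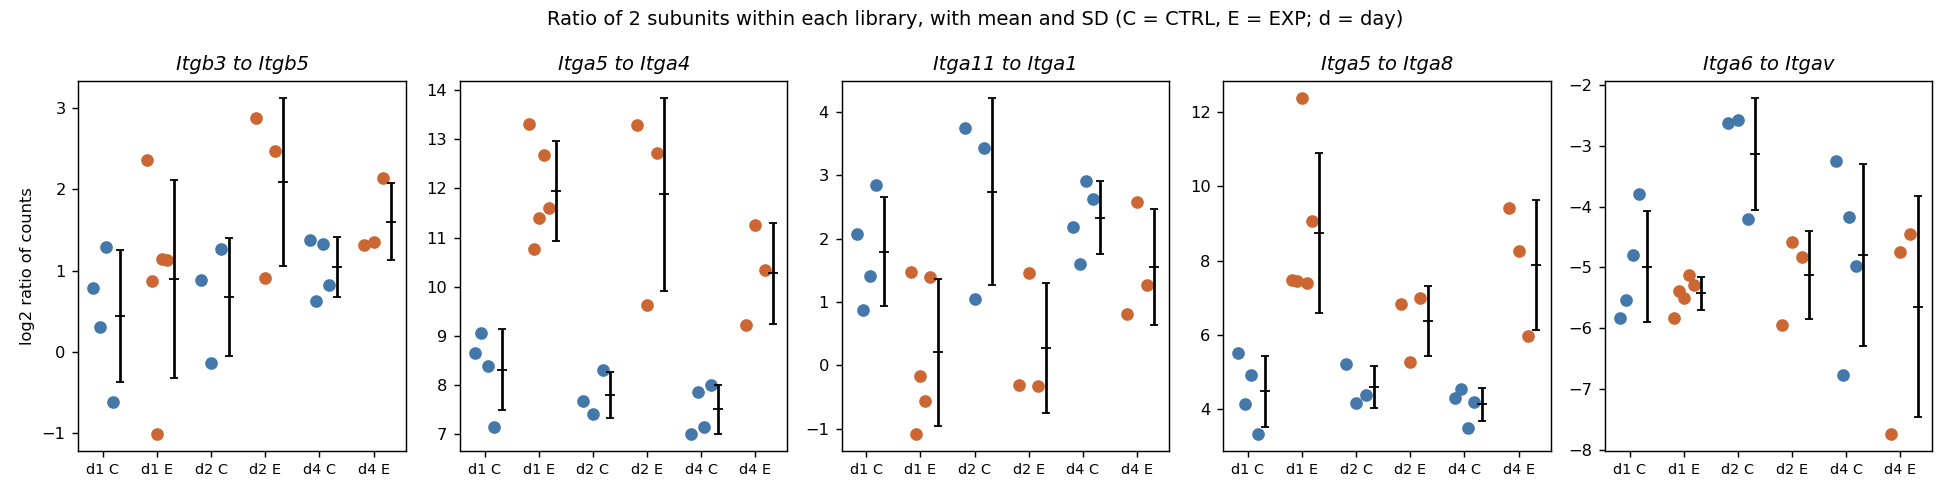
Log2 ratio of the counts of 2 subunits (each plus 2 counts) in every library, with group mean and SD, for CTRL (C) and EXP (E) on days 1, 2 and 4. In the panels of Itga5 to Itga4 and Itga5 to Itga8 the EXP points lie above the CTRL points on each day, by means of 4.28, 1.79 and 3.76 for Itga5 to Itga8. On days when both subunits of a ratio were apart on their own, this follows from their levels.

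Whether the effect of the expander differed between days was tested jointly. In edgeR 0 of the 10 subunits were called for this, where 8.82% of all genes were. Itga1 (p 0.00672, adjusted p 0.0641) and Itgb1 (p 0.0368, adjusted p 0.165) were the 2 with an unadjusted p under 0.05. For Itga1 the effect on day 2 exceeded that on day 1 by 2.02 on the log2 scale. DESeq2 called Itga1 for this test (adjusted p 0.0182) and so did limma voom (adjusted p 0.0133), 1 subunit each, as did 4 of the 22 fits that left out 1 library: without day 1 EXP replicate 4, day 2 CTRL replicate 2, day 2 EXP replicate 2 or day 4 EXP replicate 3. For Itga5 the joint test gave a p of 0.792, which does not show that its effect was equal on the 3 days.

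Change over the days within an arm was tested in the same way. Among EXP libraries 0 of the 10 subunits were called in edgeR, where 14.3% of all genes were. Itgb3 (p 0.0160), Itga11 (p 0.0232) and Itga4 (p 0.0294) had an unadjusted p under 0.05, with adjusted p of 0.0833, 0.105 and 0.122. DESeq2 called these 3, and limma voom called Itgb3. In edgeR Itgb3 was called without day 1 EXP replicate 1 or day 2 EXP replicate 2, and Itga4 without the latter. Itga11 in EXP was lowest on day 1 and highest on day 4, with means of 23.1, 39.1 and 60.7 CPM. Among CTRL libraries 0 subunits were called by edgeR, DESeq2 or limma voom, where edgeR called 0.291% of all genes, and Itga1 alone had an unadjusted p under 0.05 (p 0.0472, adjusted p 0.348).

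Among the 10 subunits, Itga5 and Itgb5 had the strongest relation across the 22 libraries, with a Pearson correlation of log2 CPM of -0.89. Itga4 and Itgb5 (0.74), Itga4 and Itga5 (-0.68) and Itga11 and Itgb3 (0.62) followed. These libraries share groups, scaling and depth, so the values describe the series and carry no p. Out of 9821 tested genes averaging 5 CPM or more, those most like Itga5 were Cemip2 (0.92), Fads3 (0.91) and Gm20186 (0.91). Those most like Itgb5 were Gm38317 (0.96), with which it shares sequence, Creb3l1 (0.90) and Marveld1 (0.88). Itga1 was closest to Itga7 (0.80), another integrin alpha subunit, followed by Trim37 (0.79) and Ppm1f (0.78). Itgav was closest to Stim2, Top2b and Ptpn9 (0.93, 0.93 and 0.92). Itga11 was closest to Matn2, Sipa1l1 and Col11a1 (0.82 each), and Itgb3 to Cav1 (0.78), Thbs2 (0.77) and Gm6493 (0.77). Itgb1 was closest to Mxra8 (0.78), Thbs2 (0.75) and Rnf14 (0.74), Itga8 to Tspan9 (0.87), Gbp3 (0.85) and Egflam (0.84), Itga6 to Bet1l (0.80), Palmd (0.74) and Zfp772 (0.73), and Itga4 to Rian (0.88), Siae (0.87) and Tmem107 (0.87).

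The other 17 mouse integrin subunits include those of blood, epithelial and muscle cells, and 10 of them had enough counts to test. In edgeR 0 of the 10 were called on day 1, against 28.6% of all genes. Itga2b and Itgb7 alone had an unadjusted p under 0.05 there, and DESeq2 and limma voom also called 0, beside 5667 and 5818 of all genes. On day 2, 2 were called, 1 higher and 1 lower, against 13.4% of all genes, and on day 4, 3 were called, 2 higher and 1 lower, against 22.5%. Itga7, which encodes a laminin receptor known from muscle, was higher on day 2 (1.53 ± 1.21 CPM in CTRL, 10.8 ± 4.46 in EXP, 3 libraries each, with a log2 fold change of 2.82, standard error 0.62, adjusted p 0.00532) and on day 4 (2.94, standard error 0.55, adjusted p 0.00156). Itgb7, which encodes a leukocyte beta subunit, was higher on day 4, at 1.09 ± 0.143 CPM in 4 CTRL libraries and 9.15 ± 7.32 CPM in 3 EXP libraries (3.06, standard error 0.47, adjusted p 0.000350). Itgb4, whose product joins α6 in hemidesmosomes, was lower on day 4 (-1.98, standard error 0.65, adjusted p 0.0351), and Itga2b, the alpha subunit of the platelet fibrinogen receptor, was lower on day 2 (-1.51, standard error 0.32, adjusted p 0.00433). The call of Itgb4 was the only lower one on day 4, and 0 lower calls were made there with limma voom, without the filter, with the replicate block, with the split as a covariate and with the day fitted on its own. Within the low side of the library split on day 4, 0 of the 10 were called, where 1 of 17554 genes was.

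Proteins of the adhesion site, which bind integrin tails or each other inside the cell, were taken as a list of 30 genes, of which 29 were tested. On day 1, 7 were higher and 3 lower in EXP, on day 2, 7 and 1, and on day 4, 5 and 1, beside 28.6%, 13.4% and 22.5% of all genes called. The list's median log2 fold change was 0.17, 0.20 and 0.25, beside 0.02, 0.02 and 0.03 over all genes. Tes, which encodes the adhesion protein testin, was higher on each day, at 1.73 (standard error 0.39, adjusted p 0.00215), 3.31 (standard error 0.50, adjusted p 0.000363) and 3.16 (standard error 0.44, adjusted p 0.000231). Fermt2, which encodes the integrin activator kindlin-2, was higher on day 1 (0.70, standard error 0.17, adjusted p 0.00342), and Tln2, for talin 2, was higher on each day (0.93, adjusted p 0.0484 on day 1, 2.06, adjusted p 0.00412 on day 2 and 2.29, adjusted p 0.000835 on day 4). Zyx, for the tension-sensitive protein zyxin, was higher on day 1 (1.07, adjusted p 0.0210) and day 2 (1.59, adjusted p 0.0138), and on day 4 went from 37.6 ± 4.29 CPM over 4 libraries to 180.2 ± 121 CPM over 3 (2.26, standard error 0.38, adjusted p 0.000697). The tensin genes Tns1 (-0.81, standard error 0.18, adjusted p 0.00223) and Tns2 (-0.73, standard error 0.23, adjusted p 0.0219) were lower on day 1, Tns1 also on day 2 (-1.39, standard error 0.22, adjusted p 0.000681), and the adaptor gene Bcar1 on day 4 (-0.98, standard error 0.25, adjusted p 0.00912). The list's calls were 2 within the high side of the library split on day 1 (0 higher, 2 lower), where 2143 of 17554 genes were called, and 0 within the low side on day 4, where 1 gene was. Scaling by library totals gave 13 calls on day 2 (12 higher) and 12 on day 4 (11 higher). With that scaling 4631 and 5287 of all genes were called on these days, 90.5% and 80.7% of them higher.

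Of 30 extracellular ligands of integrins, 29 were tested. On day 1, 1 rose and 13 fell, on day 2, 5 rose and 4 fell, and on day 4, 9 rose and 6 fell, beside the same 28.6%, 13.4% and 22.5% of all genes, with list medians of -0.54, -0.14 and -0.08. Fn1, which encodes the ligand of α5β1, was lower on day 1, at 1187 ± 326 CPM in 4 CTRL libraries and 307 ± 70.0 CPM in 5 EXP libraries, a log2 fold change of -1.95 (standard error 0.33, adjusted p 0.000263). Its differences on day 2 (-0.84, standard error 0.41, adjusted p 0.180) and day 4 (0.95, standard error 0.37, adjusted p 0.0710) did not pass, and its effect differed between days (adjusted p 0.00405). Itga5 was higher on all 3 days. Tnc, for tenascin-C, was higher on each day (2.92, adjusted p 0.0150 on day 1, 5.39, adjusted p 0.00457 on day 2 and 4.40, adjusted p 0.00428 on day 4). Tgfb3, whose latent product αv integrins bind, was lower on day 1 (-1.26, adjusted p 2.55e-05), higher on day 2 (0.81, adjusted p 0.0125) and lower again on day 4 (-0.78, adjusted p 0.00816), and its effect differed between days (adjusted p 0.000424). Spp1, for osteopontin, an RGD ligand of αv integrins, was higher on day 2 (3.66, standard error 0.65, adjusted p 0.00138) and day 4 (4.30, standard error 0.59, adjusted p 0.000253). Postn, for periostin, was lower on day 1 (-1.42, adjusted p 0.00914) and higher on day 2 (2.58, adjusted p 0.00238) and day 4 (1.44, adjusted p 0.0236), with an effect that differed between days (adjusted p 0.00136). Col1a1, a collagen gene whose product α1 and α11 bind, was lower on day 1 (-0.99, adjusted p 0.0319), day 2 (-1.85, adjusted p 0.00693) and day 4 (-1.13, adjusted p 0.0450). Col3a1, another such collagen gene, passed as lower on day 1 (-1.35, adjusted p 0.00188) and day 2 (-1.48, adjusted p 0.0107) and was at -0.60, adjusted p 0.207 on day 4. Nid1, for the basement membrane protein nidogen-1, was higher on day 4 (1.39, adjusted p 0.00164). Ccn1, for a matricellular protein, was lower on day 2 (-0.93, adjusted p 0.0328) and day 4 (-1.38, adjusted p 0.00216). The ligand calls were 4 within the high side of the split on day 1 (0 higher, 4 lower) and 0 within the low side on day 4, beside the same 2143 genes and 1 gene called in all. On day 2 scaling by library totals gave 11 higher and 3 lower, where 4631 of all genes were called, 90.5% of them higher.

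**Figure D5:**
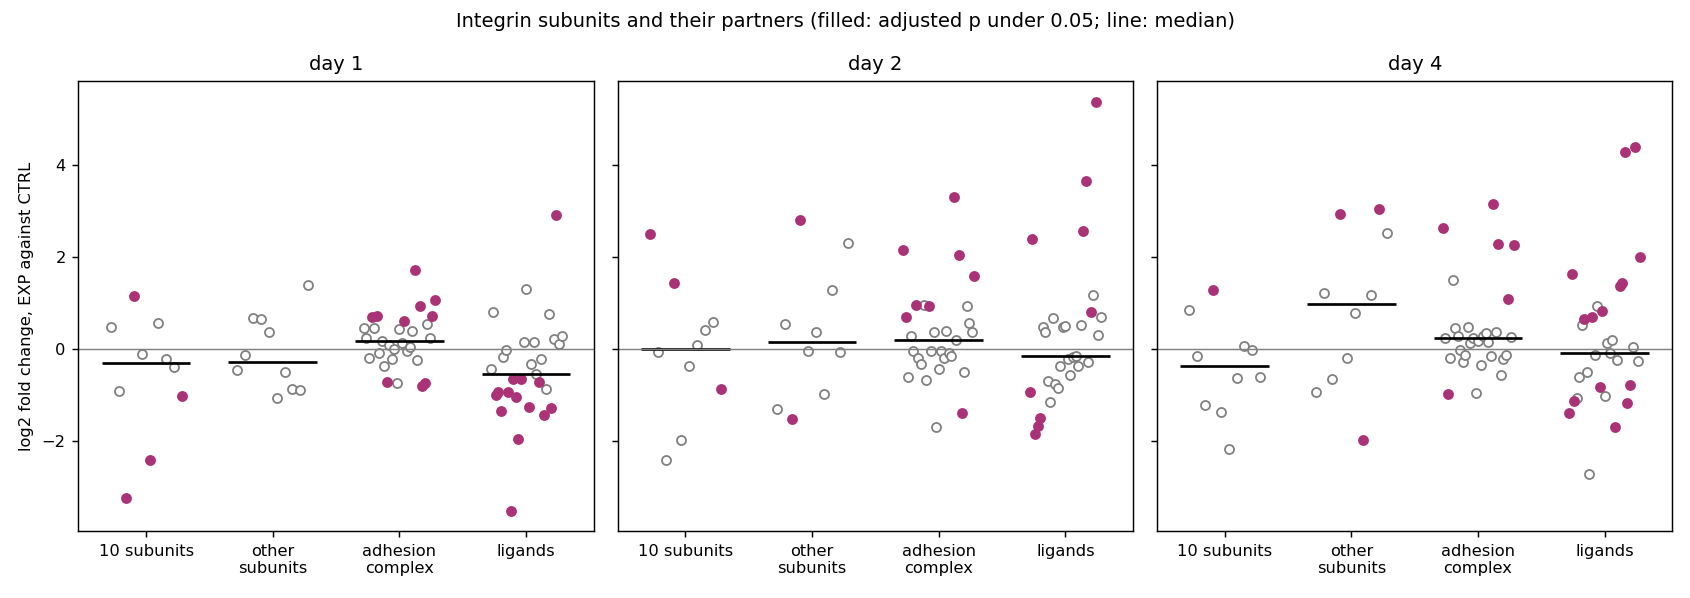
Log2 fold change of EXP against CTRL on each day for the 10 subunits, the other tested integrin subunits, the adhesion complex and the ligands; filled points passed an adjusted p of 0.05 and bars mark list medians. On day 1 the ligand points lie mostly below 0 (median -0.54), and the adhesion complex median is above 0 on each day (0.17, 0.20 and 0.25).

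Markers of other skin cells were summed beside these results. The gate removed cells with CD31 (endothelial), CD45 (immune), CD117 (melanocytes and mast cells) and EpCAM (epithelial), and had no marker against pericytes, Schwann cells or adipocytes. Endothelial markers, of cells that carry α6 and β3, summed to 5.76 to 9.23 CPM in CTRL and 0.911 to 8.48 CPM in EXP on day 1, 0.498 to 0.783 and 2.08 to 7.39 CPM on day 2, and 4.15 to 9.96 and 23.7 to 55.6 CPM on day 4. Of 5 tested, Kdr was called higher on days 2 and 4 and Emcn on day 4, at levels of at most 2.57 and 1.18 CPM. Pecam1, which encodes CD31, was at most 3.68 CPM. Tek reached the highest level of these markers, 44.8 CPM in EXP on day 4, and was not called there in edgeR (2.63, adjusted p 0.0563). Immune markers, of cells that carry α4, summed to 39.9 to 88.6 CPM in CTRL and 34.0 to 51.4 CPM in EXP on day 1, 109.9 to 162 and 60.0 to 90.2 CPM on day 2, and 108 to 148 and 43.2 to 131 CPM on day 4. The immune sums were apart on day 2 and overlapped on days 1 and 4, and Itga4 was apart on days 1 and 2. Csf1r had the highest level of these markers, with a median of 72.8 CPM over all libraries. Of 5 immune markers tested, Csf1r was called lower on day 1, Cd68 higher on days 1 and 2 and S100a8 higher on each day. S100a8 was at most 0, 0.0522 and 0.0419 CPM in CTRL on days 1, 2 and 4. It thus entered the test through EXP, the arm where it was higher, and its calls support nothing beyond its own counts. Ptprc, which encodes CD45, and Adgre1 were at most 0.243 and 0.236 CPM in any library. Adipocyte markers summed to 0 to 4.94 CPM in CTRL and 0 to 0.0807 CPM in EXP on day 1, 0 to 0.404 and 1.93 to 27.1 CPM on day 2, and 0.0429 to 0.580 and 0.697 to 121 CPM on day 4. Of 3 tested, 0, 1 and 3 were called higher on days 1, 2 and 4, beside 13.9%, 7.72% and 12.8% of all genes. In CTRL on days 2 and 4 Plin1 was at 0 CPM, Cidec at most 0.104 and 0.0967 CPM and Adipoq at most 0.359 and 0.483 CPM. These calls set EXP counts against few or none in CTRL and support nothing beyond those counts. Schwann cell markers summed to at most 3.78 CPM and melanocyte markers to at most 37.0 CPM in any library. The 9 fibroblast markers had median sums of 182873 CPM in CTRL and 88343 CPM in EXP on day 1, 265072 and 90767 CPM on day 2, and 237850.0 and 91092 CPM on day 4. Col1a1 and Col1a2, which are also among the ligands, had the highest levels of the 9, with medians of 68707 and 62985 CPM over all libraries. In edgeR Pdgfra was called higher on each day (0.84, 1.71 and 0.79, adjusted p 0.0154, 0.00134 and 0.0456). Of the 9, 3, 4 and 3 were called lower on days 1, 2 and 4. Cd34 was lower on day 1 (-1.74, adjusted p 0.00081) and day 2 (-2.07, adjusted p 0.00379) and did not pass on day 4 (-0.93, adjusted p 0.0948). The part of these cells in the integrin values was not tested.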

How the data were processed

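Sorted skin fibroblasts of 22 libraries were measured by ultra-low-input RNA-seq, and the deposited table holds raw read counts per Ensembl gene. Trimmomatic and the genome build mm39 are named in the submitters' processing notes, and the aligner, the counter, its annotation and its use of strand are not given in the sources used here. The values are raw counts as the authors deposited them. Symbols came from GENCODE M21, which matched 52081 of 55414 identifiers.

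Counts were fitted with edgeR 4.0.16 (R 4.3.3) by the quasi-likelihood test, with 1 mean per day and arm, TMM scaling, a minimum of 10 counts in filterByExpr, 17554 genes tested, 16 residual degrees of freedom and Benjamini-Hochberg adjustment over all of them at 0.05. Correlations used log2 CPM with a prior count of 2. Alternatives were DESeq2 1.42.0, limma 3.58.1 (voom with quality weights), other scalings, no filter, a replicate block, each day alone, the library split and each library left out. The split was set by genes correlating above 0.9 with Rnf10. The fit was tested on simulated data.

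The 10 subunits and all gene lists were chosen with earlier results of these data known. Named besides the 10 were the sort markers, up to 2 called genes in each direction per list and day with the smallest p, and the 3 genes most correlated with each subunit. Genes named as markers of other cells or as overlapping neighbours were added for the result they stand beside. Exons of Itga1, Itga4, Itga8 and Itgav overlap those of another gene.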

Additional observations from a re-analysis of the deposited data

Results flagged for a closer look

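Over the 3 groups of at least 4 libraries and the quantities described, 45 sets of values were examined, and 4 held a library whose gap to its nearest neighbour was large for the group's range by Dixon's criterion, and 2.25 are expected by chance. All 4 lay in the day 1 EXP group. Itga1 was at 30.1 CPM in replicate 4, with 13.5 to 17.0 CPM in the other 4 libraries. Itga6 was at 2.90 CPM in replicate 1, with 0.727 to 1.27 CPM in the others. In replicate 1 Itgav was also the highest, at 169.3 CPM beside 33.8 to 60.7 CPM. Itgb5 was at 40.4 CPM in replicate 3, with 19.5 to 25.2 CPM in the others.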

How the results depend on the processing

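Of the 10 subunits, those called on day 1 numbered 4 in each fit without 1 library (4024 to 4815 of all genes called) and 2 when fitted within the split's high side (2143 genes). Day 2 gave 5 with limma voom (4620 genes, beside 2359 in edgeR), and 2 to 4 without 1 library (921 to 2249 genes). Day 4 gave 2 with DESeq2 (4800 genes, beside 3943 in edgeR), with scaling by library totals (5287) and with the split as a covariate (2887), 0 within the low side (1 gene), and 1 to 2 without 1 library (1755 to 4990), the 2 coming without EXP replicate 3. For an effect that differed between days, DESeq2 and limma voom gave 1, Itga1 (2609 and 2352 genes, beside 1549 in edgeR), library totals gave 1, Itgb1 (adjusted p 0.0416, 1662 genes), and fits without 1 library 0 to 1. For change within EXP, DESeq2 gave 3 and limma voom 1 (3551 and 2539 genes, beside 2502 in edgeR), and fits without 1 library 0 to 2. Scaling by library totals moved the median log2 fold change of all genes to 0.21, 0.49 and 0.36 on days 1, 2 and 4, with 66.2%, 90.5% and 80.7% of called genes higher.

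Directions turned only among values that had not passed. On day 1, Itga6 was 0.092 with library totals, 0.64 within the high side and -0.52 to 0.30 without 1 library, and Itgav was -0.037 to 0.75 without 1 library. On day 2, library totals gave 0.073 for Itga8 and 0.40 for Itga11, and without 1 library Itga11 was -0.41 to 0.43 and Itgav -0.035 to 0.21. On day 4, Itga11 was 0.21 with limma voom, 0.16 with library totals, 0.39 within the low side and -0.37 to 0.34 without 1 library. Itgav was 0.14 within the low side on day 4, and Itgb3 was 0.28 with library totals, 0.021 without the filter, 0.18 with the split as a covariate and -0.35 to 0.19 without 1 library. The ratio of Itga6 to Itgav on day 4 was -1.52 to 0.19 without 1 library. The cause was not tested.

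Replicate numbers were not taken to pair the libraries, since deviations of same-numbered libraries correlated at -0.0664 to 0.164 and only 3 of 10 pairs were over 0.1. On day 4 the 3 same-numbered pairs (0.0795, 0.146 and 0.109) were each higher than the other pairs of the same libraries, a hint from the data and not from the design. With the replicate block, 5 subunits were called on day 1 (4337 of all genes), 2 on day 2 (2210) and 1 on day 4 (2702). For an effect that differed between days it called 0, where 401 of all genes were called, beside 1549 without the block. The block gave 0.047 for Itga11 on day 2. It called Itga11 on day 1 (-1.33, adjusted p 0.0404) and not Itgb5 on day 2 (-0.87, adjusted p 0.0639).

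Low counts limit Itga4 and Itga6. With a prior count of 0.5 in place of 2, the ratio of Itga5 to Itga4 on day 1 moved from 3.64 to 4.61. For the lists, the alternatives were chosen after seeing the data. On day 1, 7 ligands were called with the replicate block (4337 of all genes, beside 5017 in the main fit). On day 2, 16 were called with limma voom (4620 genes, beside 2359). On day 4, 8 were called without the filter (2927 genes), 9 with the block (2702) and 6 with the day fitted alone (1072), beside 3943 genes in the main fit. Other integrins had 1 call with library totals on day 1 (5130 of all genes) and 5 on day 4 (5287 of all genes).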

Other observations

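Itga2b, which encodes the alpha subunit of the platelet fibrinogen receptor, was found at 6.04 to 30.4 CPM in these libraries. The other platelet markers were at most 0.697 CPM for Pf4, 0.375 CPM for Gp9 and 2.55 CPM for Ppbp. In edgeR Ppbp was called higher in EXP on day 4 (7.78, adjusted p 0.0138). It was at 0 CPM in each CTRL library of that day and so entered the test through EXP. Itgae, which encodes an alpha partner of β7, was at most 0.429 CPM in any library, while Itgb7 was among the genes higher in EXP on day 4. The effect of the expander differed between days for Itgb7 (edgeR, adjusted p 0.00163) and for Itga2b (adjusted p 0.00639).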
